A study of Caenorhabditis elegans with 6 samples.

Results

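The genes described here encode the linker histones and the replacement histone variants of *C. elegans*. They were chosen by gene name in the deposited annotation and comprise 10 of the 20362 genes counted, namely the linker H1 genes *his-24*, *hil-2*, *hil-3*, *hil-4*, *hil-5*, *hil-6* and *hil-7*, the H3.3 genes *his-71* and *his-72*, and the H2A.Z gene *htz-1*. RNA was sequenced from 3 populations of *grh-1* OEx line 1, which carries an integrated *hsp-16.2p::grh-1::gfp* construct (GFP-tagged *grh-1* under a heat-inducible promoter), and from 3 populations of wild-type N2 (Bristol) nematodes (WT). All were whole nematodes, grown for 64 h from the egg and then 48 h further at 20 °C on *E. coli* OP50. No heat shock was given, and the construct had been bombarded into an *unc-119* mutant strain and backcrossed against N2. Line 1 is a single transgenic line, so that effects of its integration and background cannot be told apart from those of *grh-1*. The comparison asks which transcripts differ when the Grainyhead transcription factor GRH-1 is moderately overexpressed.

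Nucleosomes are built from the core histones H2A, H2B, H3 and H4, whose genes are mostly active during DNA replication and whose mRNAs mostly end in a stem-loop in place of a poly(A) tail. Linker histone H1 binds the DNA where it enters and leaves the nucleosome and favors compact chromatin. Replacement variants can be placed into chromatin outside replication. H3.3 is brought in where nucleosomes turn over, and H2A.Z is found at the promoters of many genes. These libraries were made from poly(A)-enriched RNA, so that transcripts with a tail were favored. In RNA of whole nematodes, fewer cells of a type and less RNA per cell cannot be told apart.

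Libraries held from 15287284 to 20314670 counts in *grh-1* OEx and from 14409044 to 25535026 in WT. Of all genes, 13736 passed the filter on low counts and were tested by the quasi-likelihood method of edgeR, with p adjusted over these genes after Benjamini and Hochberg, the source of every adjusted p unless another tool is named. At an adjusted p under 0.05, 20 genes (0.146%) were higher in *grh-1* OEx and 41 (0.298%) lower. The targeted gene, *grh-1*, measured 7.65, 9.69 and 6.52 CPM (a count scaled to library size with TMM factors) in *grh-1* OEx and 4.997, 5.63 and 6.17 CPM in WT. In *grh-1* OEx, reads of the construct may be included. Every *grh-1* OEx library was above every WT library, but the log2 fold change of 0.51 (standard error 0.21) did not pass the test (adjusted p = 0.709). WT replicate 3 stood apart from the other 5 libraries on the first principal component and had an unusually high sum of 15 sperm marker genes. That sum was 12.5 to 27.8 CPM in *grh-1* OEx, and 6.35, 22.96 and 195 CPM in WT replicates 1 to 3, with *spe-9* at 0 in a library. The sum of 10 intestine markers was 29430 CPM in WT replicate 3 and 11094 to 15984 CPM in the other 5 libraries. Germline, oocyte, muscle and neuron marker sums were also highest in WT replicate 3, while those of epidermis and embryo were not. For this reason results that turn on that library are also given without it.

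All 10 variant genes passed the filter and had reads in every library, and by edgeR none was higher or lower at an adjusted p under 0.05, a call made for 0.444% of tested genes in either direction by edgeR and by limma-voom alike. At an unadjusted p under 0.05 there was 1, *hil-7*, which was higher, against 2.18% of tested genes called higher by that rule. By DESeq2 *hil-7* was also past the adjusted threshold, with 1.11% of its tested genes called in either direction, while limma-voom called none of the 10. Both tools gave only *hil-7* an unadjusted p under 0.05, as against 5.33% of all genes in DESeq2 and 5.69% in limma-voom. The log2 fold changes of the 10 genes ran from -0.37 for *hil-4* to 0.85 for *hil-7*, 6 of them positive, with a median of 0.04. The median over all tested genes was -0.01.

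**Figure D1:**
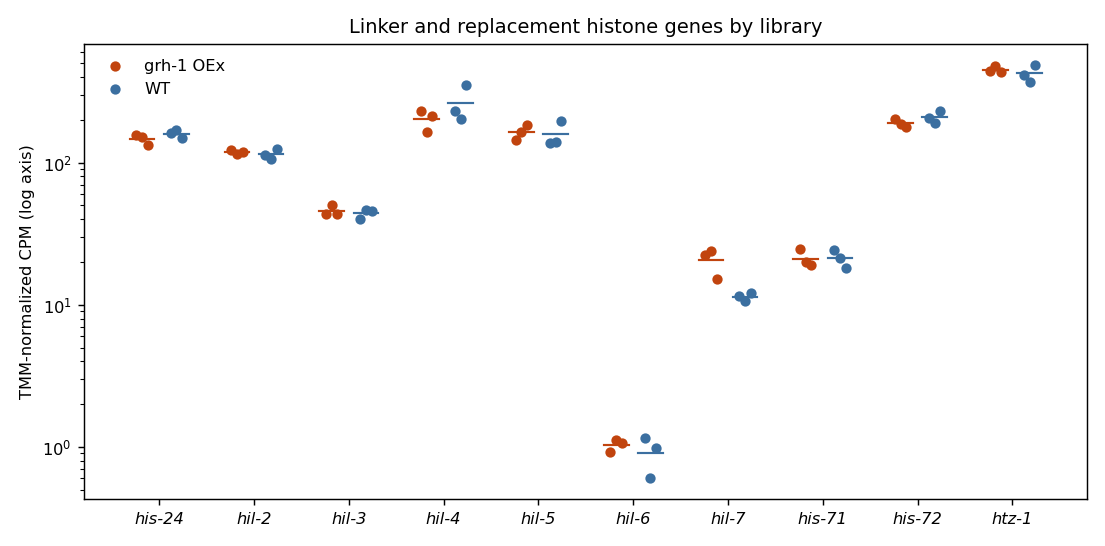
Points show TMM-normalized CPM of each library on a log axis for the 10 variant genes, with *grh-1* OEx left of WT and a bar at each group's mean (n = 3 each). The groups overlap for every gene but *hil-7*, where the *grh-1* OEx libraries lie between 15.1 and 23.9 CPM and the WT libraries between 10.6 and 12.1 CPM.

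Among the linker histone genes, *hil-7* (WBGene00001858), annotated as a histone H1-like gene, showed the clearest difference. It lies on the plus strand of chromosome IV, from 6646034 to 6646939 in the deposited WBcel235 annotation, while the Ensembl model used for exons starts at 6646312. It had 22.6, 23.9 and 15.1 CPM in the *grh-1* OEx libraries, and 11.5, 10.6 and 12.1 CPM in WT replicates 1 to 3. The groups did not overlap, as they did not for 3.39% of tested genes in this direction, yet *grh-1* OEx replicate 3 stood nearer to WT than to the other libraries of its own group. The underlying reads were 469, 469 and 241 counts in *grh-1* OEx and 170, 194 and 260 counts in WT. *hil-7* thus averaged 20.5 ± 4.74 CPM in *grh-1* OEx and 11.4 ± 0.736 CPM in WT (SD, n = 3 each). On the log2 scale it was 0.85 higher (standard error 0.19, 95% interval 0.43 to 1.27, adjusted p = 0.138 by edgeR). This corresponds to a fold of 1.81, with an interval from 1.35 to 2.42. Of all tested genes, 4.99% had an absolute log2 fold change of this size or larger, and 0.83% an unadjusted p as small as its 0.00115.

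Whether *hil-7* passed the threshold depended on the tool and on single libraries. It passed by DESeq2 (log2 fold change 0.87, adjusted p = 0.00687). In edgeR it passed when *grh-1* OEx replicate 3 was left out (1.05, adjusted p = 0.0405), where 0.105% of tested genes were called higher, and when WT replicate 3 was left out (0.89, adjusted p = 0.0412), where 0.295% were. It did not pass in 10 other settings, with adjusted p from 0.0619 to 0.778, the highest in edgeR with *grh-1* OEx replicate 1 left out (0.78 on the log2 scale, adjusted p = 0.778). The fold change was positive in all 13 alternatives, from 0.73 to 1.05. The summed levels of 8 marker lists for tissues or germ cells all overlapped between the groups with 6 libraries. Without WT replicate 3, where *hil-7* passed, the sums of 10 germline markers (2643 to 3108 CPM in *grh-1* OEx, 2475 and 2537 CPM in WT) and of 12 oocyte markers (8788 to 9933 CPM in *grh-1* OEx, 8526 and 8599 CPM in WT) were also higher in every *grh-1* OEx library. The part of these cells in the difference was not tested.

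**Figure D2:**
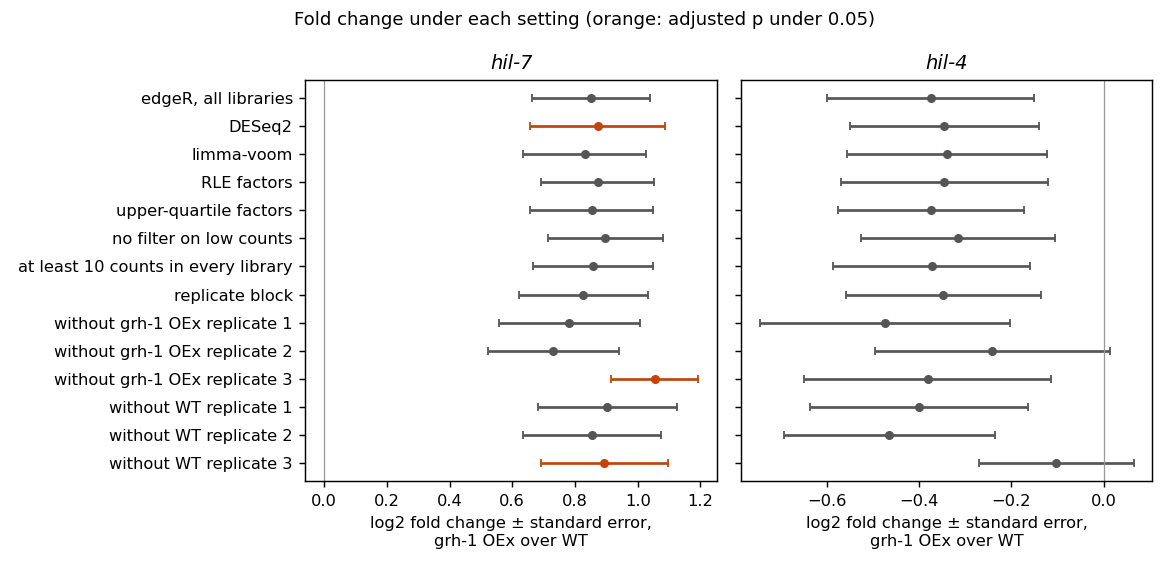
Points show the log2 fold change of *hil-7* (left) and *hil-4* (right), *grh-1* OEx over WT, with its standard error, in edgeR with all libraries and in 13 alternatives, orange where the adjusted p was under 0.05. *hil-7* stays between 0.73 and 1.05, while *hil-4* lies at -0.37 with all libraries and at -0.10 without WT replicate 3.

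None of the genes around *hil-7* passed the threshold. Its 4 nearest tested neighbors on chromosome IV, *C01B10.8*, *C01B10.6*, *C01B10.11* and *Y73B6A.3*, had log2 fold changes of -0.10, 0.09, 0.02 and -0.75, and unadjusted p from 0.0849 to 0.898 in edgeR. Over the 6 libraries, the 3 genes whose pattern was most like that of *hil-7*, by the root mean square difference of log2 CPM centred on each gene's mean, were *C05G5.5* (0.11), *T03G11.3* (0.12) and *F17E9.4* (0.12), out of 13735 genes compared. Since these 3 genes were chosen by pattern, a fold change like that of *hil-7* was set by the choice. *F17E9.4* was the only one of them past the threshold (log2 fold change 0.82, standard error 0.14, adjusted p = 0.0454). *F17E9.4* averaged 117 ± 15.5 CPM in *grh-1* OEx and 65.9 ± 4.79 CPM in WT (SD, n = 3 each). Low genes were compared on the same scale, and *T03G11.3* stood at 1.49 CPM or less in every library.

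*hil-4* (WBGene00001855, chromosome V from 4754313 to 4755473, plus strand), which encodes the linker histone H1.4, had 229, 164 and 213 CPM in the *grh-1* OEx libraries and 230, 204 and 352 CPM in WT replicates 1 to 3. The groups overlapped, and WT replicate 3 alone lay far above the other 5 libraries. Its log2 fold change of -0.37 (standard error 0.22, 95% interval -0.88 to 0.13) had an adjusted p of 0.894, and became -0.10 (adjusted p = 0.973) without WT replicate 3. The summed level of 12 oocyte markers, none of them at 0, was 8788 to 9933 CPM in *grh-1* OEx, and 8526, 8599 and 14062 CPM in WT replicates 1 to 3. Intestine (29430 CPM), germline (3748 CPM), muscle and neuron marker sums were likewise highest in WT replicate 3, and those of epidermis and embryo were not. The part of any of these cells, and of the sperm markers above, in the value was not tested. The 3 genes most like *hil-4* over the 6 libraries were *rsr-1* (0.07), a splicing-related gene, *nape-2* (0.08) and *perm-4* (0.09), an eggshell gene that is among the oocyte markers. None of them passed the threshold.

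*his-24* (WBGene00001898, chromosome X from 14490107 to 14491111, plus strand) encodes H1.1, the linker histone that is needed for silencing of transgenes in the nematode germline. It had 156, 152 and 134 CPM in the *grh-1* OEx libraries and 161, 171 and 148 CPM in WT replicates 1 to 3. The libraries overlapped, and the log2 fold change was -0.11 (standard error 0.14, 95% interval -0.42 to 0.19). Its exons overlap a pair of noncoding genes on the other strand, *M163.16* and *M163.19*, in the Ensembl annotation of WBcel235, and since the kit is unstranded their reads cannot be told from those of *his-24*.

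The remaining linker histone genes showed no difference larger than the spread between libraries. *hil-2* (chromosome IV from 6294240 to 6295220), the H1.2 gene, was the most even of the 10 within *grh-1* OEx, with 123, 114.8 and 120 CPM there and 114, 106 and 126 CPM in WT. *hil-3* (chromosome X from 8159154 to 8160086), the H1.3 gene, had 43.7, 50.1 and 43.8 CPM in *grh-1* OEx and 40.3, 46.6 and 46.1 CPM in WT. *hil-5* (chromosome I from 5774585 to 5775610), the H1.5 gene, had 144, 163 and 183 CPM in *grh-1* OEx and 138, 140 and 198 CPM in WT. In all 3 the groups overlapped. WT replicate 3 was the highest library for *hil-2* and *hil-5*, as it was for *hil-4*, *his-72* and *htz-1*. Without it the log2 fold change was 0.11 for *hil-2* and 0.23 for *hil-5*. Their log2 fold changes were 0.05 for *hil-2*, 0.05 for *hil-3* and 0.04 for *hil-5*, with 95% intervals from -0.24 to 0.34, -0.23 to 0.33 and -0.36 to 0.44. *hil-6* (chromosome V from 2030657 to 2031475), annotated as a putative H1.6 gene, was barely detected, at 17 to 22 counts in *grh-1* OEx and 11 to 21 counts in WT, and its 95% interval of -0.59 to 0.97 on the log2 scale reaches a fold of 1.96.

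**Figure D3:**
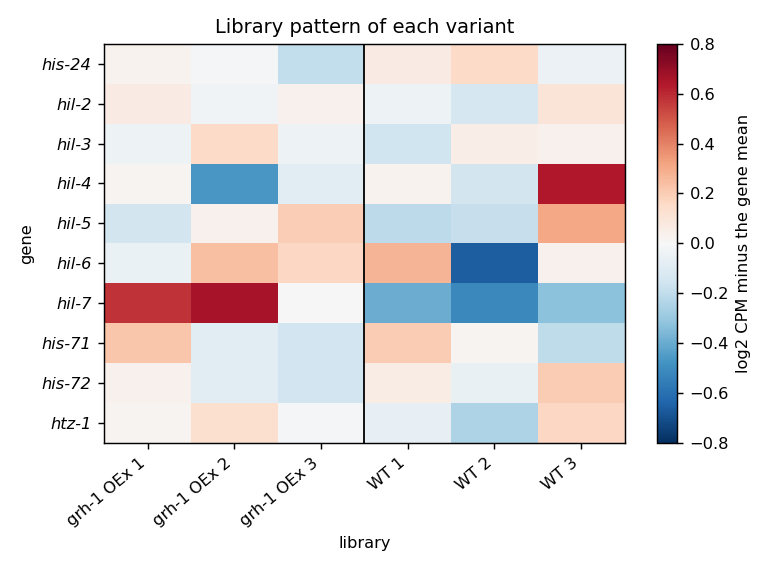
Color shows log2 CPM minus the mean of the gene over 6 libraries, with the *grh-1* OEx libraries left of the line and WT right of it. *hil-7* is the only gene whose *grh-1* OEx cells all exceed its WT cells, and the strongest single cells elsewhere are *hil-4* in WT replicate 3 (0.64) and *hil-6* in WT replicate 2 (-0.66).

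As shares of the linker histone pool, computed per kilobase of gene model so that genes can be compared, *hil-4*, *hil-5*, *hil-2* and *his-24* made up most of the H1 transcripts. *hil-4* held 24.6 ± 3.45% in *grh-1* OEx and 30.0 ± 4.64% in WT. *hil-5* held 22.5 ± 2.90% in *grh-1* OEx and 20.6 ± 1.47% in WT, *hil-2* 22.4 ± 0.0823% in *grh-1* OEx and 20.7 ± 1.30% in WT, and *his-24* 19.5 ± 1.76% in *grh-1* OEx and 20.4 ± 3.97% in WT (SD, n = 3 each). In *grh-1* OEx the ranges of these 4 genes overlapped, except that *hil-2* (22.3 to 22.5%) was above *his-24* (17.5 to 20.9%) in every library, while in WT the share of *hil-4*, from 26.1 to 35.1%, was above those of the other 3 genes, from 15.97 to 23.6%. *hil-3* held 6.24 ± 0.703% in *grh-1* OEx and 5.77 ± 0.775% in WT, and *hil-6* 0.216 ± 0.0286% in *grh-1* OEx and 0.180 ± 0.0579% in WT. *hil-7* was a minor member, at 4.51 ± 1.11% of the pool in *grh-1* OEx and 2.39 ± 0.210% in WT. The summed level of the 7 genes was 839 ± 26.7 CPM per kilobase in *grh-1* OEx and 883 ± 125 in WT (SD, n = 3 each), a difference smaller than the spread of the WT libraries.

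The H3.3 genes were carried mainly by *his-72* (WBGene00001946, chromosome III from 12367474 to 12369050, minus strand). It had 204, 188 and 179 CPM in the *grh-1* OEx libraries, and 207, 192 and 229 CPM in WT replicates 1 to 3. *his-71* (WBGene00001945, chromosome X from 7981381 to 7982070, minus strand) had 24.6, 19.8 and 18.9 CPM in *grh-1* OEx, and 24.2, 21.3 and 18.2 CPM in WT. The groups overlapped for both genes. Log2 fold changes were -0.14 for *his-72* (95% interval -0.45 to 0.18) and -0.01 for *his-71* (95% interval -0.36 to 0.35), and the sign for *his-71* turned under RLE factors, in DESeq2 and in other settings. Per kilobase, *his-72* held 89.4 ± 0.742% of the pool of *his-71* and *his-72* in *grh-1* OEx and 90.1 ± 1.76% in WT (SD, n = 3 each). The difference was smaller than the spread. The H3.3-like gene *his-74*, not in this pool, had 328 ± 26.2 CPM per kilobase in *grh-1* OEx and 367 ± 56.3 in WT. Whether reads of these genes, which encode nearly the same protein, can be exchanged in mapping was not tested.

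*htz-1* (WBGene00019947, chromosome IV from 4446002 to 4447006, plus strand), the H2A.Z gene, was the most abundant of the 10 per length, with 542 ± 28.0 CPM per kilobase in *grh-1* OEx and 511 ± 73.7 in WT (SD, n = 3 each). It had 443, 477 and 433 CPM in the *grh-1* OEx libraries and 416, 368 and 489 CPM in WT replicates 1 to 3. Every *grh-1* OEx value fell inside the range of WT, whose upper end was set by WT replicate 3. The log2 fold change was 0.09 (standard error 0.16), and its 95% interval from -0.27 to 0.45 corresponds to folds of 0.827 and 1.36. Without WT replicate 3 the *htz-1* libraries did not overlap and the log2 fold change was 0.20 (adjusted p = 0.824 by edgeR). In that setting *hil-2*, *hil-5*, *hil-7* and *htz-1* were higher in every *grh-1* OEx library and *his-24* was lower in every one. These were 4 and 1 of the 10 genes, where 10.8% of tested genes lay apart in the higher direction and 11.5% in the lower. Of the 5, only *hil-7* passed the test, the other 4 having adjusted p from 0.774 to 0.950 in edgeR. Behind *htz-1* came *his-72*, at 300.0 ± 19.3 CPM per kilobase in *grh-1* OEx and 330 ± 29.8 in WT, without overlap with *htz-1* in either group, and then the group of 4 linker genes. In WT the range of *hil-4* reached that of *his-72*. Per kilobase, *hil-3* followed at 52.2 ± 4.17 CPM in *grh-1* OEx and 50.5 ± 3.95 in WT. *hil-7*, at 37.8 ± 8.72, and *his-71*, at 35.7 ± 5.09, did not differ beyond their spread in *grh-1* OEx, while in WT *hil-7*, at 20.9 ± 1.35, was below *his-71*, at 35.9 ± 5.01.

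**Figure D4:**
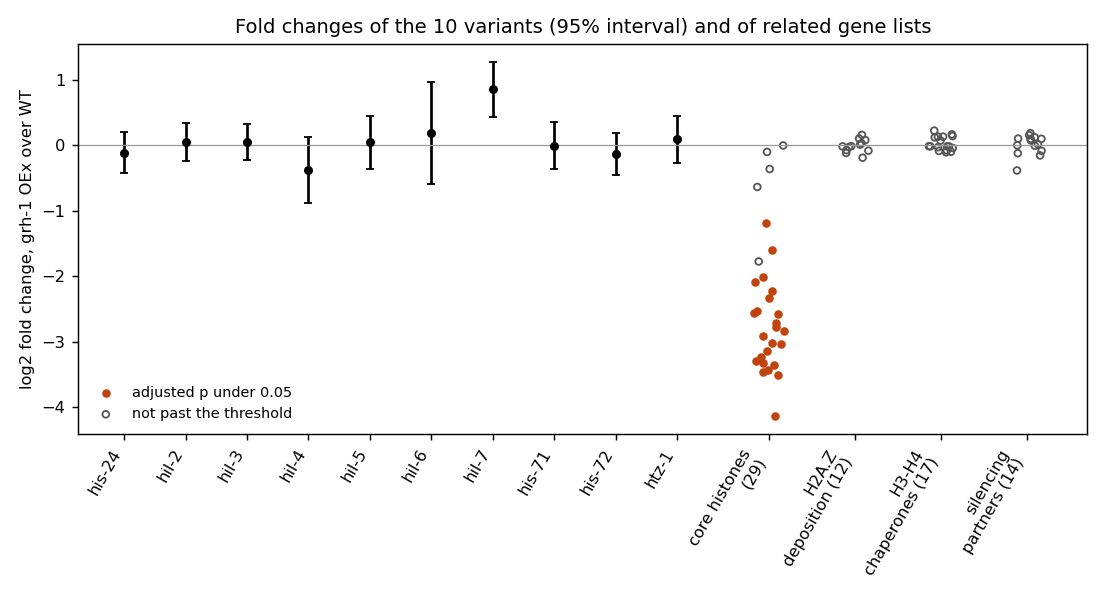
Black points show the log2 fold change, *grh-1* OEx over WT, of the 10 variant genes with its 95% interval, and small points those of tested genes in 4 related lists, orange where the adjusted p was under 0.05. The 10 variants lie between -0.37 and 0.85, while 24 of 29 tested core histone genes are past the threshold below 0.

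The variants were set beside the core histone genes, the other class of histone transcripts in these libraries. Of 65 core histone genes counted, 29 passed the filter, and 24 of these were lower in *grh-1* OEx, with a median log2 fold change of -2.72, where 0.298% of all tested genes were lower. The 3 with the smallest p were *his-61* (-3.46, standard error 0.16), *his-67* (-3.51, standard error 0.16) and *his-62* (-2.91, standard error 0.16). *his-61*, an H2A gene, averaged 5.45 ± 0.613 CPM in *grh-1* OEx and 59.8 ± 8.05 CPM in WT (SD, n = 3 each). Many core histone genes are near-identical copies, so that single values are uncertain, and the difference between both classes of genes was not itself tested.

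Summed over classes, the core genes separated the groups in each library and the variants did not. Canonical H3 genes (15) had 15.8, 13.6 and 14.7 CPM in the *grh-1* OEx libraries and 88.7, 70.1 and 85.5 CPM in WT replicates 1 to 3. The H3.3 genes *his-71* and *his-72* together had 228, 208 and 198 CPM in *grh-1* OEx, and 231, 213 and 247 CPM in WT. Counts of this pair were thus 14.4 ± 0.911 times those of canonical H3 in *grh-1* OEx and 2.85 ± 0.217 times in WT (SD, n = 3 each). The ranges did not overlap, and the H3.3-like gene *his-74* was not included. For *htz-1* over the 17 canonical H2A genes the ratios were 8.24 ± 0.853 in *grh-1* OEx and 2.30 ± 0.208 in WT. Over all genes of both classes, the 10 variants had 7.20 ± 0.162 times the counts of the core histones in *grh-1* OEx and 2.31 ± 0.284 times in WT. The counts of the variants themselves were 1362 ± 25.8 CPM in *grh-1* OEx and 1407 ± 188 CPM in WT. Those of the core histones were 189 ± 0.912 CPM in *grh-1* OEx and 610 ± 64.2 CPM in WT. Most of the core sum in *grh-1* OEx came from *his-35* (29.3 CPM), *his-37* (50.1 CPM) and *his-41* (37.2 CPM), which did not pass the threshold. In WT these genes averaged 37.8, 53.9 and 37.4 CPM. The ratios above describe poly(A)-enriched RNA, in which histone mRNAs that end in a stem-loop are depleted. They were formed from CPM that were not divided by gene length. Some core copies in the sums, such as *his-9* and *his-13*, had 0 counts in every library. Whether reads shared by near-identical copies went uncounted was not tested, so that the sums and ratios are uncertain as well as single values.

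**Figure D5:**
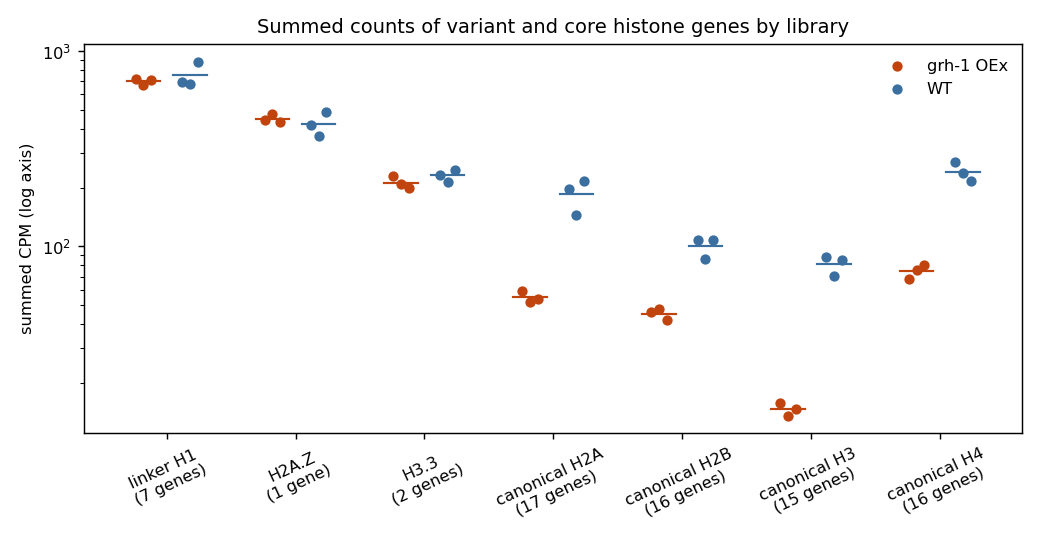
Points show summed CPM per library on a log axis for the linker, H2A.Z and H3.3 genes and for 4 classes of core histone genes, *grh-1* OEx left of WT, with bars at the means (n = 3 each). Both groups overlap in the 3 variant classes, while every core class is lower in *grh-1* OEx, for example 54.9 against 186 CPM for canonical H2A.

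A feature that the 10 variants share, beyond their names, is that all 10 have an intron in at least 1 transcript of the Ensembl annotation of WBcel235, 9 of them in every transcript, whereas 61 of the 65 core histone genes have 1 exon in every annotated transcript. This split, looked at after the values were seen, also ran through the core histones. Of the 25 tested core histone genes with 1 exon, 23 were lower in *grh-1* OEx, with a median log2 fold change of -2.83. Of the 4 with an intron in some transcript, *his-57* was lower (-2.02), and *his-35* (-0.36), *his-37* (-0.10) and *his-41* (-0.01) did not pass. *his-57* has transcripts with 1 exon as well, as *hil-7* does among the variants, while those 3 have 2 exons throughout. *his-35*, *his-41* and *his-37* also lie close together on chromosome V, from 9544651 to 9547609. For them exon number and position cannot be told apart. On the genome the variants are scattered, and none of them has a core histone gene among its 2 nearest tested neighbors on either side. The nearest core histone gene on the same chromosome was 670801 bases from *his-71*, and chromosome III, which holds *his-72*, has none on the list.

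Further histone variants and the proteins that handle them also gave no gene past the threshold. Of 6 other variant genes, *hil-1* (H1.X), *his-74* (H3.3-like) and the CENP-A genes *hcp-3* and *cpar-1* were tested, and all 4 had log2 fold changes between -0.16 and -0.02. *his-74* was abundant, at 190 ± 15.2 CPM in *grh-1* OEx and 212 ± 32.6 CPM in WT (SD, n = 3 each), a level like that of *his-72* in CPM. *his-69* and *his-70*, which did not pass the filter, reached at most 0.663 CPM in *grh-1* OEx and 2.92 CPM in WT, both values being those of *his-70*, and the second of WT replicate 3.

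Genes for the deposition of H2A.Z, 12 tested subunits or relatives of the SWR1 and TIP60 complexes, had a median log2 fold change of -0.02, and none passed the threshold. The smallest p were those of *mys-2*, a MYST acetyltransferase gene (-0.19, standard error 0.20), *ruvb-2*, a RuvB-like ATPase gene (-0.12, standard error 0.13), and *C17E4.6* (0.10, standard error 0.17). Of the histone chaperones and assembly remodelers, 17 were tested, with a median of -0.02 and a range from -0.11 to 0.22. *chd-3* (0.22, standard error 0.19), *nap-1* (0.17, standard error 0.17), a nucleosome assembly protein gene, and *nasp-1* (0.13, standard error 0.15) had the smallest p there. Of 14 heterochromatin genes, none passed, with a median of 0.04. *hmg-12*, an HMG protein gene, was the lowest (-0.39, standard error 0.23), at 238 ± 48.3 CPM in *grh-1* OEx and 311 ± 84.9 CPM in WT (SD, n = 3 each), and *set-25* (0.15, standard error 0.15) and *set-32* (-0.16, standard error 0.17) encode histone methyltransferases or their relatives. Across these 3 lists and the other variants, 0 genes had an adjusted or unadjusted p under 0.05 in edgeR, DESeq2 or limma-voom, against 6.62% of all tested genes with an unadjusted p under 0.05 in edgeR.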

How the data were processed

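Poly(A) RNA of whole nematodes was sequenced from 3 populations each of *grh-1* OEx and WT (TruSeq RNA Sample Prep Kit v2, unstranded). After trimming, reads were mapped by the authors with STAR (genome WBcel235 of Ensembl), and raw read counts per gene from featureCounts were deposited. Versions are not given in the sources used here. A second deposited table gave gene names, positions and model lengths. Its p-values, adjusted p-values and log2 ratios of the authors' own comparison, and its normalized counts and FPKM, were not used.

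After filterByExpr (minimum count 10, minimum total 15), TMM-scaled raw counts went into the quasi-likelihood test of edgeR 4.0.16 (R 4.3.3). Intervals are 95% intervals from the fit's moderated degrees of freedom. Levels per length are CPM divided by model length in kilobases. Alternatives were DESeq2 1.42.0, limma-voom (limma 3.58.1), scaling by RLE or by the upper quartile, the filter dropped or tightened to 10 counts per library, a replicate block, and leaving out each library. The fit was tested on simulated data of 13585 genes, where it called 55 of 98 genes with a log2 change of 1, 88 of 99 with a log2 change of 2, and 18 unchanged genes. No library copied another (chi-square per degree of freedom 16.4 or more within groups). Replicates are separate populations per the study's methods. Intervals of the fit measure spread between these libraries.

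The genes and lists were chosen with earlier results of these data known. Named genes were the 10 members, *grh-1*, up to 3 genes per list by smallest p, and the 3 genes nearest in pattern to each of the 2 members of widest range. Genes named by position or exon number were chosen after their values were seen.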

Additional observations from a re-analysis of the deposited data

How the results depend on the processing

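The 10 variants kept their side of the threshold in all 13 alternatives except *hil-7*, so that the count of variants called higher was 1 in DESeq2 (log2 fold change 0.87), and 0 to 1 with a library left out, being 1 without *grh-1* OEx replicate 3 (1.05) or WT replicate 3 (0.89). The cause was not tested. None was called lower in any. The sign turned only for values near 0, in *hil-3* without *grh-1* OEx replicate 2 (-0.017), in *hil-5* without *grh-1* OEx replicate 3 (-0.020), and in *his-71* with DESeq2 (0.018), limma-voom (0.00192), RLE factors (0.017), no filter (0.039), and a library left out (-0.13 to 0.14). Genes called higher numbered 60 in DESeq2, 10 with the replicate block and 1 to 41 with a library left out, and genes called lower 89 in DESeq2 and 10 to 212. Core histones called lower numbered 13 when 10 counts were required in every library, which tests fewer of them, and 10 to 24 with a library left out, 11 when it was *grh-1* OEx replicate 1 and 10 when it was replicate 2 of that group. The replicate numbers are not stated to pair the samples. Deviations of same-numbered libraries correlated at 0.23, -0.01 and -0.12, which with 3 libraries per group cannot decide whether they shared a batch. The block changed no call of a variant (*hil-7* 0.83, adjusted p = 0.279 by edgeR). At these depths, 11 to 22 counts limit *hil-6*. The number of variants whose libraries did not overlap, counted again after seeing the data, was 4 higher and 1 lower without WT replicate 3. In that setting 10.8% of tested genes lay apart in the higher direction and 11.5% in the lower. With all libraries the numbers were 1 and 0, where 466 and 843 of 13736 tested genes lay apart.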
